A study of Mus musculus with 11 samples.

Results

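The cluster of miR-143 and miR-145 is a pair of microRNA (miRNA) hairpins that lie next to each other on mouse chromosome 18. Its members were taken by name from the deposited count table: every arm of miR-143, miR-145a and miR-145b. This gave 5 mature miRNAs of the 1281 names in the table, namely mmu-miR-143-3p, mmu-miR-143-5p, mmu-miR-145a-5p, mmu-miR-145a-3p and mmu-miR-145b, written below without the species prefix. Small RNA was sequenced from 50 mg of liver of untreated telomerase-knockout mice on the C57/B6 background, to look for miRNAs that depend on the tumour suppressor p53. Telomeres were short in both groups and both lacked telomerase. The 5 libraries labelled G4 p53+/+ had p53, and the 6 labelled G4 p53-/- did not. Mice that have telomerase were not analysed here. The labels give no age or sex. They also leave unsaid whether libraries came from different animals, and p-values then cover only the variation among these libraries, which may be technical. Libraries are called by the sample number in their titles, 1 to 5 for p53+/+ and 6, 7, 8, 10, 11 and 12 for p53-/-.

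A miRNA hairpin is cut first by Drosha in the nucleus and then by Dicer, and either arm of the remaining duplex, named 5p or 3p, can be loaded into Argonaute to repress messenger RNAs. miR-143 and miR-145 are known to be cut from one long primary transcript and to be most abundant in smooth muscle, pericytes and fibroblast-like cells, where they favour the contractile state. In liver such cells are the muscle of vessel walls, portal fibroblasts and stellate cells, while hepatocytes make up most of the RNA. Links to p53 are known from other systems: p53 is reported to activate transcription of miR-145, and to help the Drosha complex to process the precursors of miR-16, miR-143 and miR-145.

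The mature sequences below are those of miRNAs that the values of the cluster are set against further on. They include miR-16-5p, whose processing is linked to p53, miR-15a-5p, which was listed beside it, and miR-34a-5p, the direct p53 target. The remaining 4 are from the 10 whose levels followed those of a dominant cluster arm most closely. All sequences are from RefSeq (GRCm38.p6), written 5′ to 3′, with the seed (bases 2 to 8, the part that pairs with targets) in capitals.
miR-16-5p: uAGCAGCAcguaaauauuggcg
miR-15a-5p: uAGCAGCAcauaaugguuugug
miR-34a-5p: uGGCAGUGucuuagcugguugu
miR-27b-3p: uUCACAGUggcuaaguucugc
miR-25-3p: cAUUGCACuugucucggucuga
miR-30e-3p: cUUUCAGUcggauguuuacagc
miR-221-5p: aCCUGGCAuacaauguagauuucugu
miR-16-5p and miR-15a-5p share the seed AGCAGCA, and the seeds of the other 5 differ from it and from each other.

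On GRCm38, GENCODE M21 places Mir143 (ENSMUSG00000065445.3) on chromosome 18 from 61649196 to 61649258 and Mir145a (ENSMUSG00000065592.2) from 61647825 to 61647894, both on the minus strand. The gap between the hairpins is 1301 nt, with Mir143 upstream, and no other GENCODE gene overlaps either. RefSeq (GRCm38.p6) draws the long noncoding RNA Carmn, from 61645878 to 61665538, across both hairpins. Mir145b (ENSMUSG00000098366.1) is a separate locus of the same chromosome, from 69022199 to 69022273 on the minus strand, 7.37 megabases from Mir143. It is a member by name and not a neighbour.

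Levels are given as CPM, the read count relative to the library total, after TMM scaling, which corrects totals for shifts in a few very abundant species. Total counts per library ran from 1905609 to 6682492, with p53+/+ libraries 1 and 2 the shallowest. The p53 label was checked on miR-34a-5p, which stood at 71.9 ± 32.4 CPM (SD, n = 5) in p53+/+ and 7.13 ± 2.95 (SD, n = 6) in p53-/- livers (adjusted p = 7.07e-05, quasi-likelihood test of edgeR). Cells of a type that are fewer and cells that hold less of an RNA cannot be told apart in whole liver.

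The 4 arms of the neighbouring hairpins were detected in all 11 libraries, and miR-145b in none. Each hairpin had a dominant arm: miR-143-3p ranked between 20 and 30 by level in each library, and miR-145a-5p between 42 and 62. The other arms, miR-143-5p and miR-145a-3p, ranked between 127 and 198. miR-145b had 0 counts in every library, which over the 53329455 counts of the series allows a level of up to 0.0563 CPM (3 counts), so reads of the miR-145 family were counted under miR-145a alone.

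None of the 4 tested arms differed between genotypes past an adjusted p of 0.05. All 4 had a fitted log2 fold change (p53-/- minus p53+/+) below 0, as did 51% of the 388 miRNAs tested. edgeR called 0 of the 4, against 0.258% of all tested miRNAs, and at an unadjusted p under 0.05 it picked 1 of the 4, miR-145a-3p, in the lower direction, where the share over all miRNAs was 9.02%, and 0 of the 4 in the higher direction, where it was 8.25%. DESeq2 called 0 of the 4 as well, against 1.8% of all. The estimates were close to 0 for miR-143-3p and between -0.31 and -0.40 for the others.

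**Figure D1:**
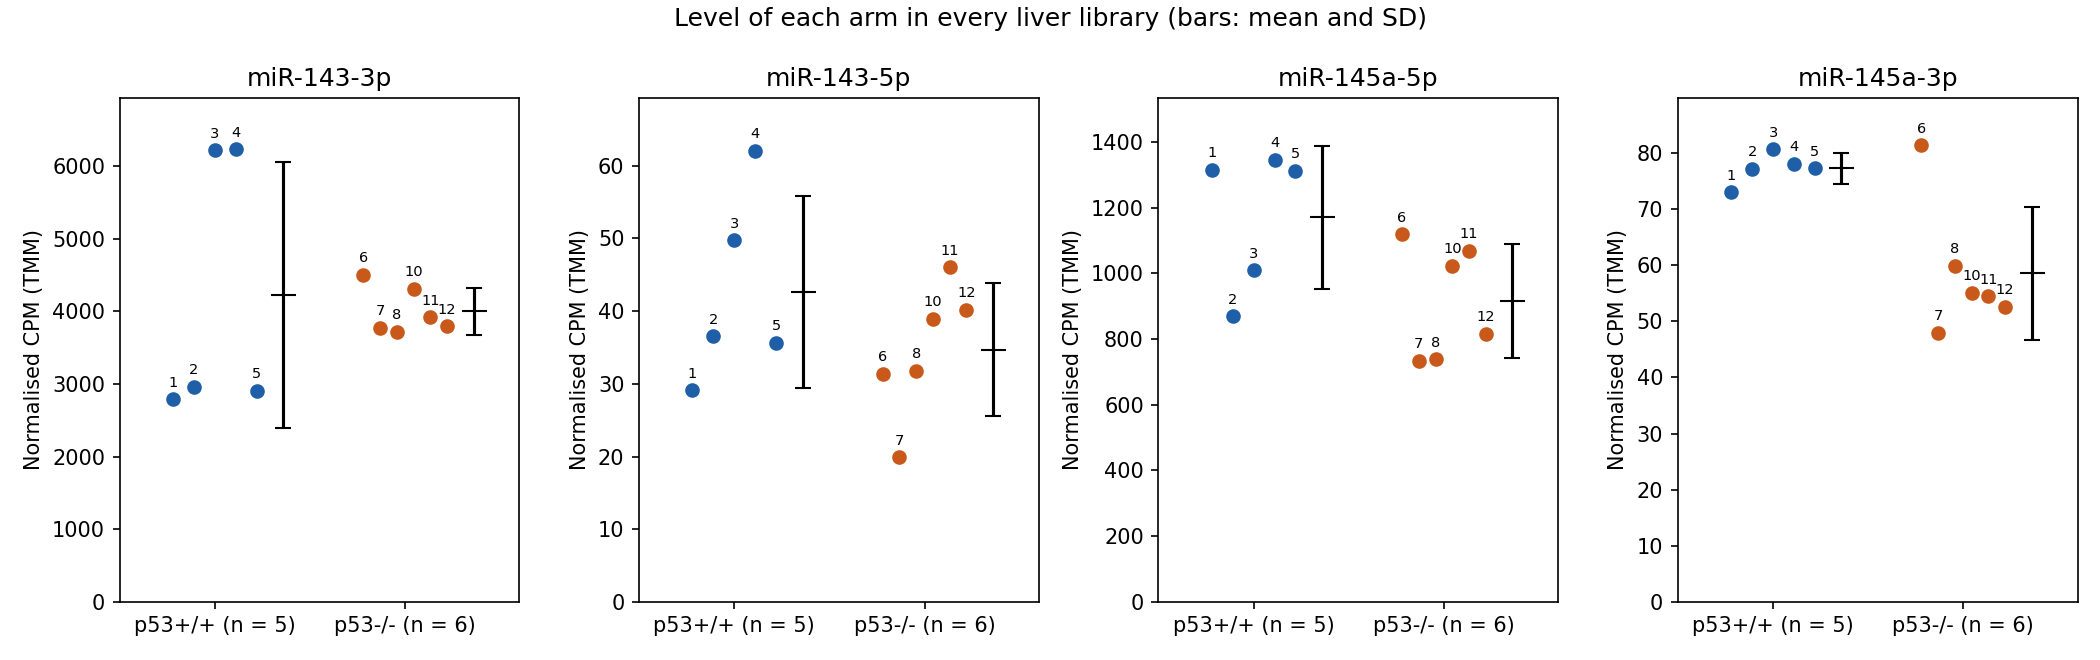
Normalised CPM (y axis, from 0) of the 4 detected arms in every library, p53+/+ (blue, n = 5) and p53-/- (orange, n = 6), with library numbers beside the points and the mean and SD as black bars. miR-143-3p of p53+/+ livers forms a high pair (libraries 3 and 4) and a low trio, while miR-145a-3p of p53-/- livers lies below all p53+/+ points except in library 6.

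miR-143-3p, the most abundant arm, was split among p53+/+ livers and even among p53-/- livers. In p53+/+ libraries 1 to 5 it stood at 2791, 2959, 6213, 6228 and 2906 CPM. In p53-/- libraries 6, 7, 8, 10, 11 and 12 it stood at 4499.9, 3769, 3716, 4307, 3914 and 3794 CPM. Libraries 3 and 4 were thus at 6213 CPM or more and libraries 1, 2 and 5 at 2959 CPM or less, and all 6 p53-/- libraries fell in the gap between them. p53+/+ livers averaged 4219 ± 1828 CPM (SD, n = 5) against 4000.0 ± 325 CPM (SD, n = 6) without p53. The fitted log2 fold change was -0.077 with a standard error of 0.23, its 95% interval ran from -0.58 to 0.42, and edgeR gave an adjusted p of 0.904. Its sign rested on single libraries: without p53+/+ library 3 it was 0.075, and without library 4 it was 0.087.

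The depth behind these values makes counting error small beside the split. miR-143-3p had between 5852 and 37072 counts per library, for which counting alone gives an SD of 0.014 on the log2 scale in p53+/+ livers and less in p53-/- livers. The observed SD was 0.61 among p53+/+ libraries and 0.11 among p53-/- libraries. Of the 251 miRNAs with a mean of at least 10 CPM, 200 had a smaller SD in p53+/+ livers, whereas only 6 did in p53-/- livers. With library totals in place of TMM the SDs were 0.56 and 0.18, and 187 and 28 miRNAs had smaller ones. The difference in spread between genotypes was not tested. Libraries 3 and 4 were also the deepest p53+/+ libraries, with 5807341 and 6448820 counts in total. Libraries 1, 2 and 5, low for miR-143-3p, had 1965468, 1905609 and 4453903. The shallowest p53-/- library, 11, had 2202415 counts, and its 3914 CPM of miR-143-3p lay within the range of the others. The part of depth in the split was not tested.

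miR-143-5p, the minor arm of the same hairpin, stood at 29.1, 36.6, 49.8, 62.1 and 35.7 CPM in p53+/+ libraries 1 to 5. In the p53-/- libraries, in the same order as above, it stood at 31.4, 19.9, 31.8, 39.0, 46.0 and 40.2 CPM. Libraries 3 and 4 were again the highest of all 11, and 5 of 6 p53-/- libraries lay within the p53+/+ range, with library 7 below it. With library totals p53-/- library 11, at 57.2 CPM, was above library 3, at 51.1 CPM, and 3 of 6 p53-/- libraries were below the lowest p53+/+ library, against 2 of 6 with DESeq2 size factors. With p53 the mean was 42.6 ± 13.2 CPM (SD, n = 5) and without it 34.7 ± 9.11 CPM (SD, n = 6). The fit put the log2 difference at -0.31, between -0.84 and 0.22 at 95% confidence (SE 0.25), at an adjusted p of 0.550 from edgeR. Counts were between 61 and 369 per library, for which counting alone gives an SD of 0.13 on the log2 scale in p53+/+ and 0.11 in p53-/- livers.

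miR-145a-5p, the dominant arm of the second hairpin, known to hold back proliferation of smooth muscle and tumour cells, had values toward the low side in p53-/- livers. Its levels were 1315, 869.8, 1009, 1345 and 1312 CPM in p53+/+ libraries 1 to 5. They were 1118, 733, 739, 1023, 1069 and 815 CPM in p53-/- libraries 6, 7, 8, 10, 11 and 12. Every p53-/- library was below the p53+/+ median of 1312 CPM, and 3 of the 6 were below the lowest p53+/+ library, so the ranges overlapped. With library totals 5 of the 6 were below the lowest p53+/+ library, and library 11, at 1329 CPM, was above the p53+/+ median of 1239 CPM. On average it stood at 1170.2 ± 217 CPM (SD, n = 5) in p53+/+ and 916 ± 173 CPM (SD, n = 6) in p53-/- livers. This log2 fold change of -0.35 had an SE of 0.18 and a 95% interval of -0.73 to 0.024, and at an adjusted p of 0.317 in edgeR it did not pass.

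With TMM, p53+/+ library 4 had the highest level of miR-143-3p, miR-143-5p and miR-145a-5p, while with library totals or DESeq2 size factors library 1 was the highest for miR-145a-5p. Library 3 was among the 2 highest for both miR-143 arms and the second lowest of its genotype for miR-145a-5p. Libraries 1 and 5 were the other way round, at the low end for miR-143-3p and, at 1315 and 1312 CPM, next to the top for miR-145a-5p.

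miR-145a-3p, the minor arm of the second hairpin, was the arm whose groups came nearest to separating. It stood at 73.0, 77.2, 80.6, 78.1 and 77.3 CPM in p53+/+ libraries 1 to 5, and at 81.4, 48.0, 59.9, 55.1, 54.4 and 52.6 CPM in the p53-/- libraries. Of the 6 p53-/- libraries, 5 lay below every p53+/+ library and library 6 lay above every one of them. The p53+/+ mean was 77.2 ± 2.76 CPM (SD, n = 5) and the p53-/- mean 58.6 ± 11.8 CPM (SD, n = 6). The log2 fold change came to -0.40 (SE 0.16), with a 95% interval from -0.75 to -0.052, and edgeR's p of 0.0273 became 0.208 after adjustment. Without library 6 the log2 fold change was -0.52 and the adjusted p 0.0966 in edgeR, so that the arm did not pass there either. The unadjusted p rose above 0.05 without p53+/+ library 2, 3, 4 or 5 or p53-/- library 7 or 11, to 0.0999 at most in edgeR.

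Whether the groups of miR-145a-3p overlap depended on how libraries were scaled. TMM lowered the effective size of library 6 more than that of any other library, to a factor of 0.832 of its total. With library totals alone the p53+/+ libraries lay between 72.0 and 89.8 CPM and the p53-/- libraries between 48.2 and 67.7 CPM, so that 6 of 6 were below every p53+/+ library. Under that scaling 1.55% of tested miRNAs were lower in p53-/- livers without overlap, and under TMM 1.03% were, miR-145a-3p not among them (1.29% were higher without overlap, and 0 of the 4 arms). With DESeq2 size factors, upper-quartile scaling and totals without miR-122-5p, 5 of 6 were below. All of these counts under other scalings, that with library totals included, were added after library 6 was seen to stand apart. The adjusted p with library totals was 0.225 in edgeR.

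**Figure D2:**
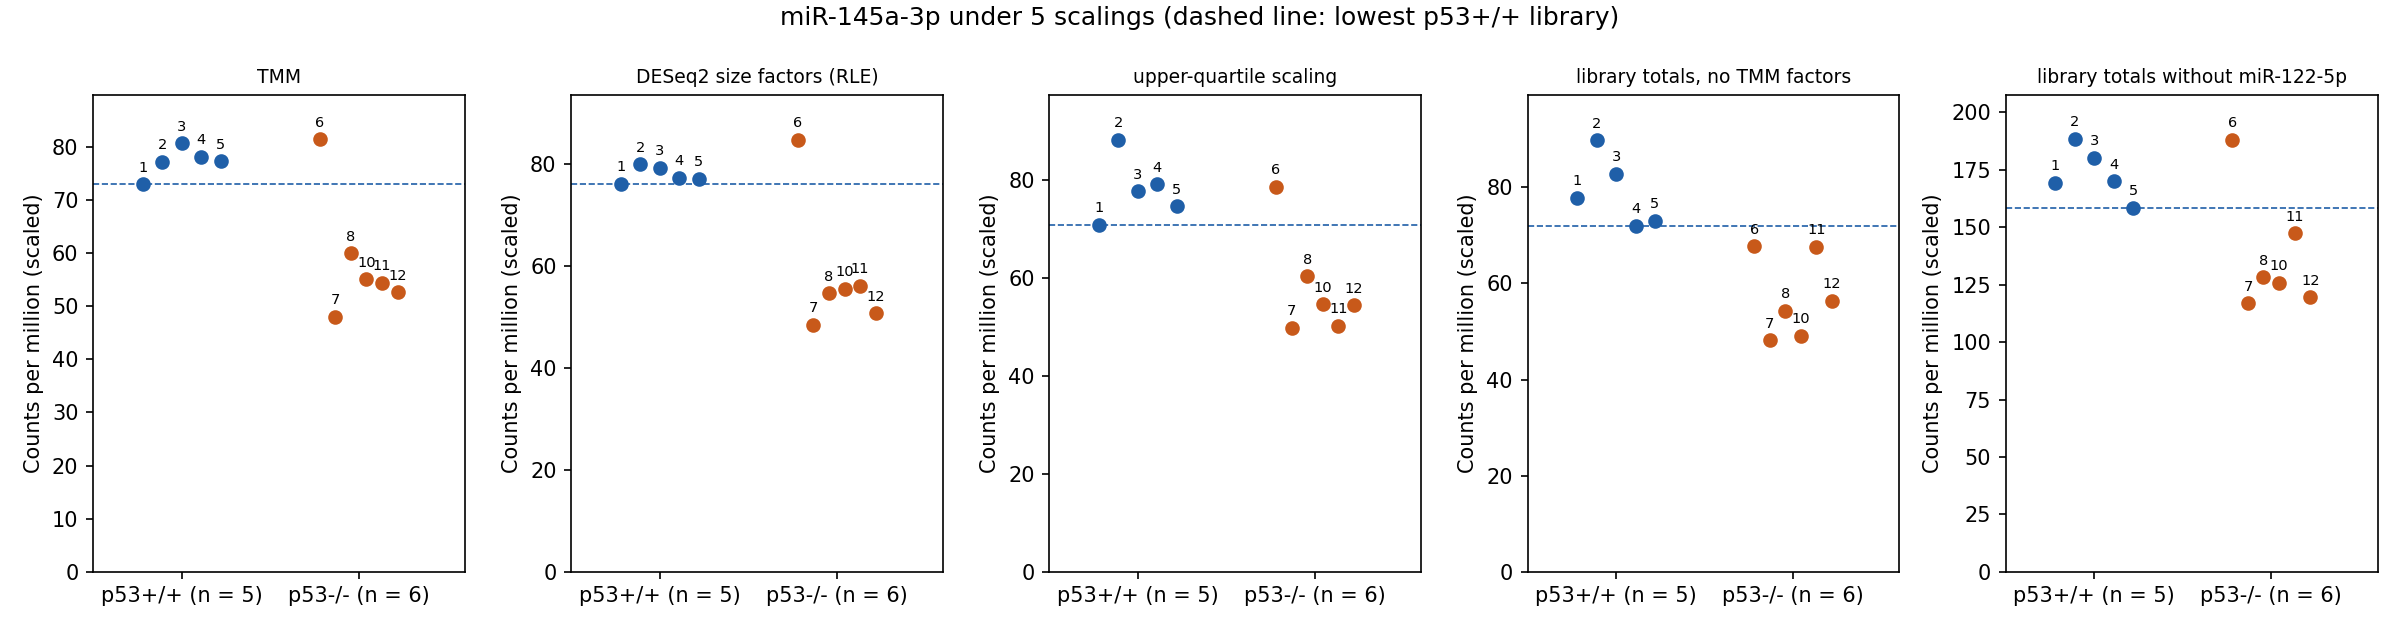
miR-145a-3p in every library (y axis, CPM from 0; library numbers beside points) under 5 ways to scale the libraries, p53+/+ in blue (n = 5) and p53-/- in orange (n = 6), with the lowest p53+/+ library as a dashed line. Library 6 lies above the line in 4 panels and below it with library totals, where 6 of 6 p53-/- libraries are below.

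The narrow p53+/+ range of miR-145a-3p was narrower than counting allows for on average. Its SD of 0.052 on the log2 scale was the smallest of the 251 miRNAs with a mean of at least 10 CPM, yet its counts, between 153 and 481 in p53+/+ libraries, give an SD of 0.091 from counting alone. With library totals the SD was 0.13, and 9 miRNAs had a smaller one. Among p53-/- libraries the SD was 0.26 with TMM and 0.22 with library totals.

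**Figure D3:**
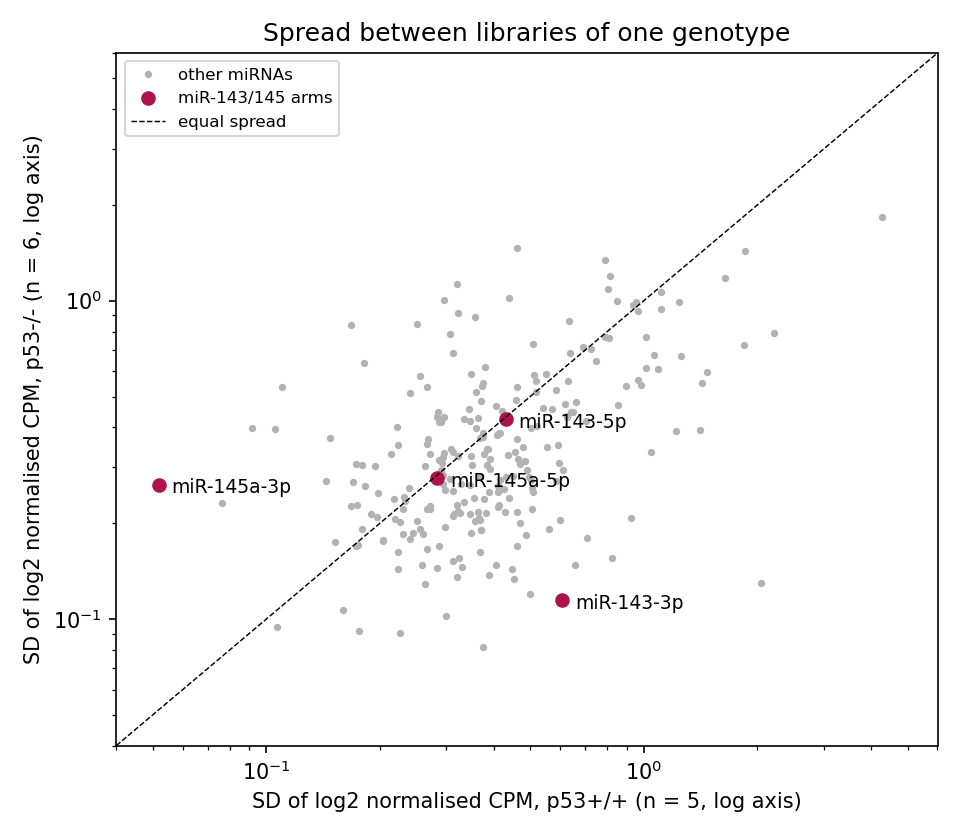
SD of log2 normalised CPM between libraries of one genotype, p53+/+ (x, n = 5) against p53-/- (y, n = 6), both on log axes, for the 251 miRNAs with a mean of at least 10 CPM, with the 4 cluster arms in red and the line of equal spread dashed. miR-143-3p lies far below the line (0.61 against 0.11) and miR-145a-3p far above it (0.052 against 0.26), while miR-143-5p and miR-145a-5p lie on it.

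Ratios of counts within a library need no scaling between libraries, and 3 of them were compared between genotypes. The ratio of the dominant arms, miR-143-3p over miR-145a-5p, was 2.12, 3.40, 6.16, 4.63 and 2.21 in p53+/+ libraries 1 to 5. It was 4.02, 5.14, 5.03, 4.21, 3.66 and 4.65 in the p53-/- libraries. The p53+/+ values thus surrounded the p53-/- values on both sides, although both hairpins come from one locus. The mean log2 ratio was 1.77 ± 0.67 (SD, n = 5) with p53 and 2.14 ± 0.19 (SD, n = 6) without it, and the difference of 0.38 was within the spread (two-sided exact permutation p = 0.229, adjusted over the 3 ratios 0.344). It was 0.59 (exact permutation p = 0.0571) without p53+/+ library 3, 0.21 (exact permutation p = 0.505) without library 1 and 0.22 (exact permutation p = 0.495) without library 5.

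Use of the arms of each hairpin also did not differ past the spread. miR-143-5p made up between 0.795% (95% Wilson interval 0.710 to 0.890%, library 3) and 1.22% (0.983 to 1.51%, library 2) of the reads of its hairpin in p53+/+ livers. In p53-/- livers it made up between 0.525% (0.443 to 0.621%, library 7) and 1.16% (0.977 to 1.38%, library 11). The log2 ratio of miR-143-3p to miR-143-5p was 6.57 ± 0.26 (SD, n = 5) with p53 and 6.89 ± 0.42 (SD, n = 6) without it, which differ by 0.32 (two-sided exact permutation p = 0.182, adjusted 0.344). Of the 6 p53-/- libraries, 6 and 7 had ratios of 142.8 and 189, above the highest p53+/+ library at 125, and library 7 is also where miR-143-5p was lowest.

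The miR-145a hairpin gave a larger share to its minor arm. miR-145a-3p made up between 5.26% (95% Wilson interval 4.50 to 6.13%, library 1) and 8.15% (7.05 to 9.40%, library 2) of that hairpin's reads in p53+/+ livers. In p53-/- livers it made up between 4.85% (4.14 to 5.66%, library 11) and 7.50% (6.75 to 8.32%, library 8). The log2 ratio of miR-145a-5p to miR-145a-3p was 3.90 ± 0.31 (SD, n = 5) with p53 and 3.96 ± 0.25 (SD, n = 6) without it, which differ by 0.067 (two-sided exact permutation p = 0.688, adjusted 0.688). The fitted log2 fold changes of the 5p and 3p arms, -0.35 and -0.40, were likewise close to each other, and neither passed the test. Intervals cover counting error only.

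**Figure D4:**
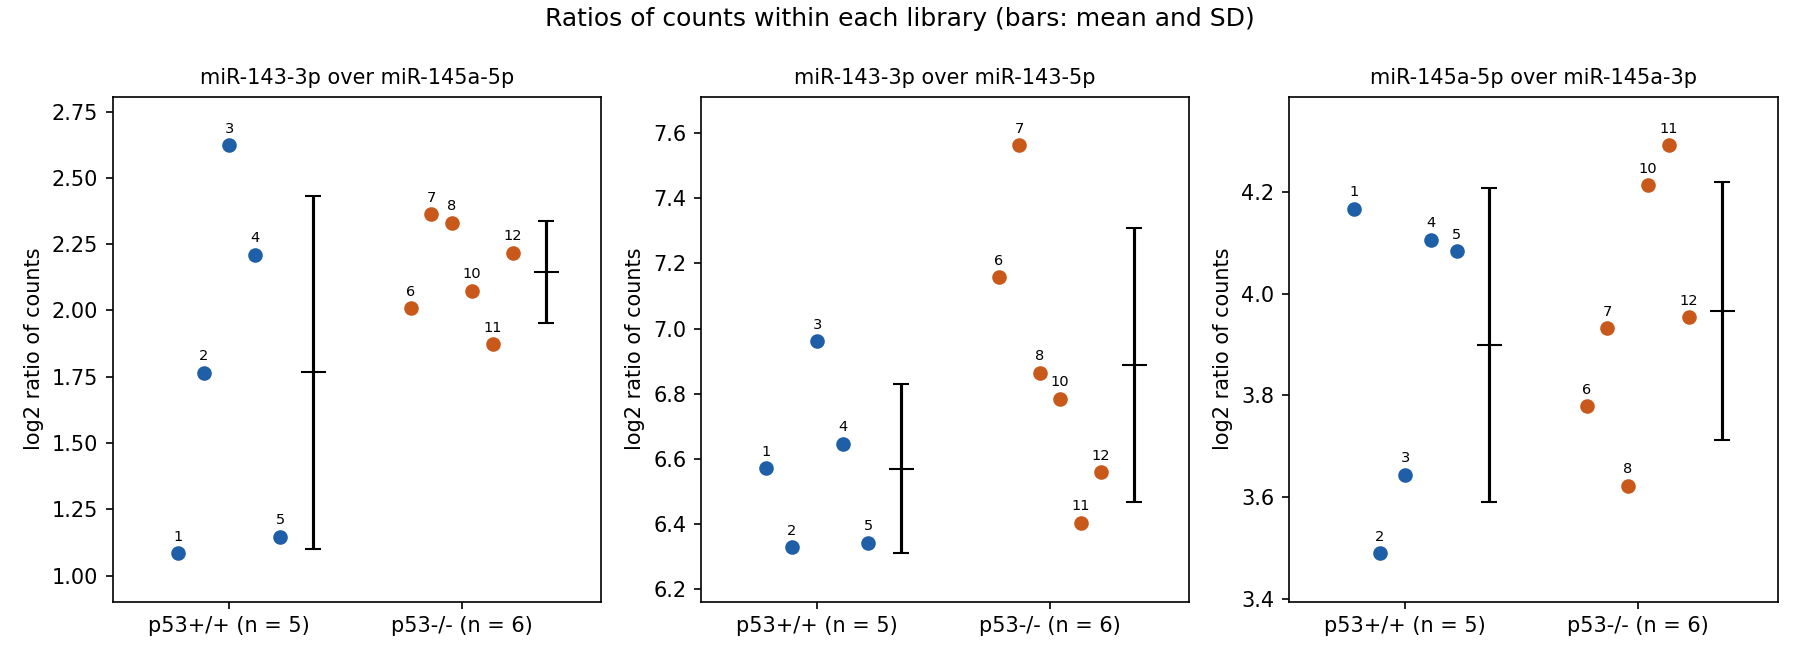
log2 ratio of counts within each library (y axis) for the dominant arms of the 2 hairpins and for both arms of each hairpin, p53+/+ (blue, n = 5) and p53-/- (orange, n = 6), with library numbers beside the points and the mean and SD as black bars. In the first panel the p53+/+ libraries span 1.09 to 2.62 and enclose the p53-/- libraries.

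The 4 arms were then compared across libraries, since they derive from 1 primary transcript. Of the 6 pairs, the arms of one hairpin gave the 2 highest correlations of log2 CPM over 11 libraries. For miR-145a-5p and miR-145a-3p, Pearson's r was 0.62 (permutation p = 0.0424, adjusted over 6 pairs 0.168) and Spearman's rho 0.57 (permutation p = 0.0708, adjusted 0.212), and r was 0.46 without p53-/- libraries 7 and 8, the 2 farthest from the median. For miR-143-3p and miR-143-5p, r was 0.59 (permutation p = 0.0561, adjusted 0.168) and rho 0.64 (permutation p = 0.0403, adjusted 0.212). That relation rested on p53+/+ libraries 3 and 4, without which r was 0.085. Correlations over 11 libraries mix the difference between genotypes with the spread within them. Within the 6 p53-/- libraries, r was 0.56 for the miR-145a arms (exact permutation p = 0.224, adjusted over 6 pairs 0.350). For the miR-143 arms it was 0.19 there (exact permutation p = 0.736, adjusted 0.803).

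The dominant arms of the 2 hairpins did not follow each other over all libraries. For miR-143-3p and miR-145a-5p, r was 0.095 (permutation p = 0.780, adjusted 0.780) and rho 0.14 (permutation p = 0.695, adjusted 0.695), and r was -0.32 without p53+/+ libraries 3 and 4. Among the 6 p53-/- libraries alone, r was 0.83 (exact permutation p = 0.0361, adjusted over 6 pairs 0.217) and rho 0.89 (exact permutation p = 0.0333). No correlation was computed among the 5 p53+/+ libraries, since 6 was the least number used, and the difference between genotypes was not tested. The other 3 pairs had r between 0.15 and 0.45 over 11 libraries, with adjusted permutation p-values from 0.340 to 0.780.

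**Figure D5:**
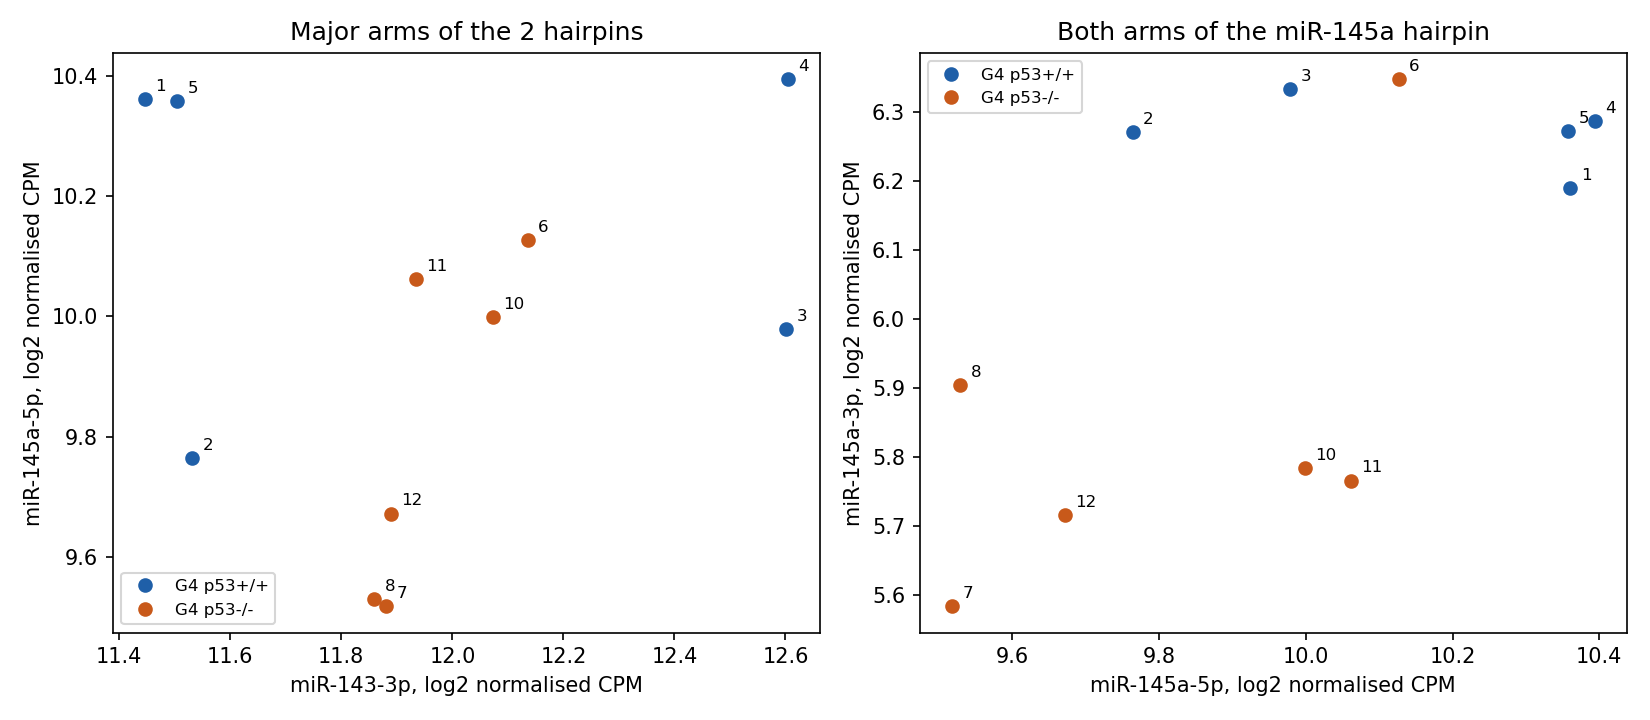
log2 normalised CPM of miR-143-3p against miR-145a-5p (left) and of miR-145a-5p against miR-145a-3p (right), each point a library with its number, p53+/+ in blue (n = 5) and p53-/- in orange (n = 6). On the left the p53-/- libraries rise together (r = 0.83) while the p53+/+ libraries lie around them. On the right 5 p53-/- libraries sit below the p53+/+ libraries.

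The miRNAs whose levels followed the dominant arms most closely were ranked by r over the 11 libraries among 247 others with a mean of at least 10 CPM. The values are descriptions, since the highest of many were taken. For miR-143-3p they were miR-1a-3p of striated muscle (0.75), miR-598-3p (0.71), miR-27b-3p (0.70), miR-25-3p (0.69) and miR-200a-5p, of epithelial cells (0.65). Without p53+/+ libraries 3 and 4 these values were 0.52, 0.33, 0.48, 0.73 and 0.66. miR-143-5p would have come at place 11 and miR-145a-5p at place 114.

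miR-1a-3p, the first of these, was low throughout and split among p53+/+ livers like miR-143-3p. Its mean over the 11 libraries, 10.3 CPM, was just above the 10 CPM needed to be ranked, so its place there hung on its highest libraries. It stood at 1.91, 7.67, 19.9, 27.9 and 3.09 CPM in p53+/+ libraries 1 to 5, with libraries 3 and 4 the highest. In the p53-/- libraries it stood at 12.2, 4.93, 2.96, 6.18, 24.1 and 2.93 CPM, with library 11 the highest, where miR-143-3p, at 3914 CPM, did not stand out.

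For miR-145a-5p the closest was miR-34a-5p (r = 0.63), followed by miR-30e-3p (0.62), miR-221-5p (0.59), miR-374b-5p (0.56) and miR-365-3p (0.56). Without p53-/- libraries 7 and 8 these values were 0.55, 0.55, 0.71, 0.40 and 0.39. Its own hairpin partner miR-145a-3p would have come at place 2, and miR-143-3p at place 77. These values mix the difference between genotypes with the spread within them, and the log2 fold change of miR-34a-5p was -3.33 (SE 0.34). Among p53+/+ libraries 1 to 5 miR-34a-5p was at 61.5, 46.9, 42.4, 120.0 and 88.7 CPM, so that libraries 2 and 3 were the lowest for both miRNAs and library 4 the highest for both under TMM.

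The list on processing linked to p53 also held miR-16 and miR-15a. miR-15a is not named in the link reported above, and its arms count in the values that follow. Of their 4 tested arms, 3 were below 0, as were 51% of all 388 miRNAs, and none passed. Their median log2 fold change was -0.22 against -0.0095 over all 388. An unadjusted p under 0.05 in edgeR was reached by 2 of the 4, against 67 of the 388. With p53, miR-16-5p stood at 495.6 ± 108 CPM (SD, n = 5), and without it at 376 ± 50.4 CPM (SD, n = 6), or -0.40 on the log2 scale (SE 0.17, edgeR's adjusted p = 0.221). miR-15a-5p, at 19.6 ± 6.23 and 13.4 ± 2.53 CPM, had -0.53 (adjusted p = 0.247 in edgeR), while miR-16-1-3p had -0.045 and miR-15a-3p, at under 4 CPM in every library, 0.18. The p53+/+ library with the highest miR-16-5p and miR-15a-5p was library 2, at 667 and 29.3 CPM, where miR-145a-5p was lowest in its genotype.

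miRNAs reported as transcribed under p53, a list that holds miR-145a, miR-15a and miR-16, had 14 of 17 tested arms below 0 with a median of -0.24. Over all tested miRNAs 51% were below 0. Its miR-145a arms, both below 0, are members of the cluster, and its miR-15a and miR-16 arms are those just given. The list is thus separate from neither. edgeR called 1 arm, miR-34a-5p, and 7 of the 17 had an unadjusted p under 0.05 in edgeR, against 67 of 388 over all. Among these 7 are the member miR-145a-3p and the 2 arms of miR-15a and miR-16 counted before. No count was made without them. DESeq2 called miR-34a-5p and also miR-194-2-3p, which was higher in p53-/- livers, with a log2 fold change of 0.49 in edgeR (SE 0.12, adjusted p = 0.174). The most abundant of them, miR-192-5p of hepatocytes, miR-22-3p and miR-194-5p, had log2 fold changes of -0.14, -0.88 and -0.52, none past the threshold (adjusted p from 0.190 to 0.714 in edgeR). Both lists were chosen with results of these data known.

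Markers of other cell types in liver were set beside the cluster. The smooth muscle and mesenchymal list, which left the cluster out, had 11 of 15 tested arms below 0 with a median of -0.052. Over all tested miRNAs 51% were below 0. edgeR called 0 of the 15, and 1 had an unadjusted p under 0.05, against 67 of 388 over all. The most abundant arms of the list, miR-10a-5p, miR-125b-5p and miR-100-5p, had log2 fold changes of -0.0099, -0.052 and 0.0015. Its miR-199a-3p and miR-199b-3p have the same mature sequence and nearly equal values, both at -0.19. They count as separate arms here, and in the summed level, without being separate measures. The summed level of the list ran from 11795 to 17654 CPM in p53+/+ and from 12375 to 16688 CPM in p53-/- livers. In p53+/+ libraries 1 to 5 this sum was 12531, 11795, 17654, 14883 and 16659 CPM. Library 3 was thus high for the sum as for miR-143-3p, library 5 was high for the sum but low for miR-143-3p, and libraries 1 and 2 were low for both. The sum was led by miR-10a-5p, at 6529, 4358, 8368, 7061 and 9723 CPM, and the arms differed in their highest libraries. miR-125b-5p stood at 2176, 3813, 3349, 2790 and 2398 CPM. miR-100-5p, at 1582, 1429, 2745, 2285 and 2004 CPM, and miR-199a-3p, at 603, 612, 787, 755 and 580 CPM, were highest in libraries 3 and 4 of that genotype, as miR-143-3p was.

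The striated muscle list was low, with 11 of 17 arms at 0 in all libraries and 2 of 17 tested. Its sum was 34.0 and 45.8 CPM in p53+/+ libraries 3 and 4 and 4.29, 14.0 and 5.47 CPM in libraries 1, 2 and 5. In p53-/- livers it ran from 5.18 to 40.9 CPM. The tested arms, miR-1a-3p and miR-133a-3p, had log2 fold changes of -0.55 and -1.02 (adjusted p = 0.711 and 0.529 in edgeR). The part of muscle or mesenchymal RNA in the high miR-143-3p of libraries 3 and 4 was not tested.

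The lists of other cell types had medians on both sides of 0, where 51% of all 388 tested miRNAs were below 0. Of the endothelial arms, miR-126-3p was at -0.13 and its partner miR-126-5p at -0.40. Biliary and other epithelial miRNAs had 9 of 10 arms below 0 (median -0.34), led in level by miR-203-3p (-0.44), miR-200b-3p (-0.21) and miR-200a-3p (-0.59). Their sum was highest in p53+/+ library 3, at 4498 CPM against 2026 to 2854 CPM in the others of that genotype. Library 3 was thus high for the sums of the epithelial, mesenchymal and striated muscle lists as well as for miR-143-3p. Not every arm of these lists was high there. Hepatocyte miRNAs had 5 of 12 arms below 0 (median 0.071), with miR-122-5p at 0.16, miR-192-5p at -0.14 and miR-148a-3p at 0.10. Erythroid miRNAs had 2 of 5 below 0 (median 0.25), with miR-486-5p at 0.37, miR-451a at -0.49 and miR-486-3p at 0.25. Leukocyte miRNAs had 2 of 8 below 0 (median 0.18), with miR-342-3p at 0.18, miR-150-5p at 0.68 and miR-223-3p at -0.23. The pancreatic arms miR-375-3p and miR-217-5p were at -2.22 and -4.47 (adjusted p = 0.174 for both in edgeR), with uneven p53+/+ values. In p53+/+ libraries 1 to 5 miR-375-3p stood at 2.86, 43.3, 56.3, 15.8 and 178 CPM, and miR-217-5p at 0, 22.1, 17.1, 0.505 and 164 CPM. Both were thus highest in library 5. In p53-/- livers they ran from 5.72 to 23.2 CPM and from 0 to 2.69 CPM. In edgeR no arm of these 6 lists passed. Those with an unadjusted p under 0.05, in either direction, were 4 of 10 epithelial, 2 of 12 hepatocyte, 2 of 2 pancreatic, 1 of 5 erythroid, 1 of 8 leukocyte and 0 of 2 endothelial arms. Over all miRNAs they were 67 of 388. The part of any of these cell types in the values of the cluster was not tested.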

How the data were processed

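Small RNA was sequenced from 11 liver libraries, 5 p53+/+ and 6 p53-/-. The deposited tables hold whole read counts per mature miRNA and hairpin, and CPM that the authors made by dividing each count by its library total. GRCm38 and limma are named per the submitters' processing notes, and the sources used here do not give the aligner or counter. Trp53 itself cannot be checked in a miRNA table.

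The count table has 1418 rows for 1281 mature names, and 76 names listed for several hairpins were counted once, at their highest count. Each member has 1 hairpin. Counts were filtered with filterByExpr, which left 388 miRNAs, scaled by TMM and fitted with edgeR 4.0.16 (quasi-likelihood F-test, genotype alone, Benjamini-Hochberg over the 388, threshold 0.05). Library totals were between 1905609 and 6682492 counts. The scripts were tested on simulated data. Ratios used counts plus 0.5 and a two-sided exact permutation test over libraries. Correlations used 100000 permutations, or all orders within p53-/- libraries. DESeq2 1.42.0 on the counts, limma 3.58.1 on log2 of the deposited CPM plus 1, other scalings and filters, sums or means over hairpins, and left-out libraries were alternatives.

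The members and the 10 lists of marker and p53-linked miRNAs were chosen with earlier results of these data known. Named were every member, the 5 miRNAs most like each dominant arm, the 3 most abundant arms of each list and miR-34a-5p. All tested miR-15a and miR-16 arms are also named, as the rest of the list on processing linked to p53, where miR-15a was put beside miR-16. miR-194-2-3p was named after its values were seen, as a DESeq2 call in a list. Likewise miR-199a-3p and miR-199b-3p were named after their values were seen, for their shared sequence and the levels of miR-199a-3p in p53+/+ libraries. miR-199a-5p and miR-214-3p were also named after their values were seen, for p53+/+ levels unlike those of miR-199a-3p.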

Additional observations from a re-analysis of the deposited data

Results flagged for a closer look

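miR-145a-3p in p53-/- library 6 stood at 81.4 normalised CPM, apart from the other 5 libraries of its genotype, which lay between 48.0 and 59.9 CPM. Its gap to the nearest of them was 0.643 of the range of the group, above Dixon's critical value of 0.625 for 6 samples. It was the only value marked among 14 groups of values looked at, and chance marks about 1 in 20 groups. Its miR-145a-5p, at 1118 CPM, and miR-143-3p, at 4499.9 CPM, were also the highest of the p53-/- libraries under TMM, while its miR-143-5p, at 31.4 CPM, was not. The library also had the lowest TMM factor of the 11, 0.832. With library totals alone its miR-145a-3p, at 67.7 CPM, was below every p53+/+ library and level with p53-/- library 11, also at 67.7 CPM. It thus stood apart under TMM but not with library totals. With DESeq2 size factors it was at 84.7 CPM against 48.5 to 56.1 CPM in the other p53-/- libraries. With upper-quartile scaling it was at 78.6 against 49.8 to 60.4 CPM, and with totals without miR-122-5p at 188 against 117 to 147 CPM. Dixon's rule was not applied under these other scalings, and the cause of the distance under TMM was not tested.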

How the results depend on the processing

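Over 22 alternatives, miR-145a-3p kept a log2 fold change below 0 (-0.54 to -0.34, adjusted p 0.0966 to 0.459), as did miR-145a-5p (-0.46 to -0.30, adjusted p 0.233 to 0.688) and miR-143-5p (-0.45 to -0.058, adjusted p 0.460 to 0.965, edgeR, DESeq2 or limma), and none passed. miR-143-3p turned to 0.075 and 0.087 without p53+/+ library 3 or 4, with -0.20 to 0.087 over the 11 left-out libraries, and was -0.30 without the shallow p53+/+ libraries 1 and 2; the cause was not tested. The log2 ratio of miR-145a-5p to miR-145a-3p was -0.035 without p53+/+ library 2 and lay between -0.035 and 0.14 over left-out libraries, and was 0.25 with only the p53-/- libraries whose label numbers exceed 500; the cause was not tested. The other 2 ratios kept their sign over 15 alternatives, and miR-143-3p over miR-145a-5p lay between 0.15 (exact permutation p = 0.619, without p53+/+ libraries 1 and 2) and 0.59 (exact permutation p = 0.0571, without p53+/+ library 3). Calls over all miRNAs numbered 1 in edgeR under every scaling, filter and left-out library, 1 in limma and 7 in DESeq2 (4 lower, 3 higher), with no member among them; the cause was not tested. No paired analysis was possible because the labels name no pairs of libraries between the genotypes. With 61 counts at the least, depth limits miR-143-5p most.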

Other observations

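The labels give each library an HA number whose meaning they do not state. p53-/- libraries 6, 7 and 8 have numbers below 500, and all other libraries have numbers above it. The ratio of miR-143-3p to miR-143-5p was 142.8, 189 and 117 in libraries 6, 7 and 8, and 110.2, 84.7 and 94.3 in p53-/- libraries 10, 11 and 12. With the p53-/- libraries above 500 alone, the log2 difference of this ratio from p53+/+ was 0.012 (exact permutation p = 0.964), against 0.32 with all, and the log2 fold change of miR-143-5p was -0.058 against -0.31. The log2 difference of the ratio of miR-145a-5p to miR-145a-3p was 0.25 there (exact permutation p = 0.321), against 0.067 with all. miR-145a-3p, at -0.54 (unadjusted p = 0.0118, adjusted p = 0.404 in edgeR), was no nearer to 0 there.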
